A study of Mus musculus with 12 samples.

Results

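The genes described here are Trp53, 8 genes known as targets of the transcription factor p53 (Mdm2, Cdkn1a, Ccng1, Aen, Phlda3, Gadd45a, Sesn1 and Eda2r) and Cdkn1b, a cyclin-dependent kinase (CDK) inhibitor that is not a classical p53 target. They were chosen by gene symbol, and all 10 were found among the 55291 symbols of the count table. Bulk sequencing measured RNA in CD8+ T cells of wild-type male mice, taken from lymph nodes and spleen, with 3 libraries in each of 4 groups. RNA of the naive group came straight from the isolated cells (day 0). The cells of the remaining groups had 2 days of stimulation with antibodies to CD3 and CD28 and 1 day of expansion in interleukin 2. On day 3 they went for 24 h into liquid media, into a gel of bovine collagen (labelled Nutragen) or into a gel of rat tail collagen (labelled RatCol), both gels at 2 mg/mL, and their RNA was taken on day 4. No group carries a p53 mutation or was given a DNA-damaging agent, so the series holds no positive control for p53 activity. The sources used here do not give the stiffness of the gels.

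p53 is held at a low level by the ubiquitin ligase Mdm2, whose own gene p53 switches on, which makes a feedback loop. When DNA is damaged or cells are stressed, p53 is stabilised as a protein and raises genes that halt the cell cycle, repair DNA, restrain growth signals or lead to apoptosis. Cdkn1a (p21) and Cdkn1b (p27) are members of 1 family of proteins that bind cyclin and CDK complexes; p27 keeps resting T cells out of the cycle, and p21 is induced by p53 and also by mitogen and cytokine signals. Since p53 is regulated mainly as a protein, the RNA of Trp53 is no measure of its activity.

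In rat tail collagen against media Cdkn1a had the largest log2 change of the 10 genes. The promoter at its upstream start is shown here because it holds a close pair of p53 motifs. The motif searched was the p53 decamer consensus, without mismatches. It is its own reverse complement, so 1 search covers both strands. In RefSeq promoter windows of 250 bases before to 50 after a gene's start (GRCm38.p6), 2745 of 32851 windows (8.36%) held it, and 24 windows (0.0731%) held a pair no more than 13 bases apart. Cdkn1a's upstream start was among these 24, and the window of its downstream start held no motif. Of the 10 genes, 7 had a motif in at least 1 window, against 9.55% of all 27025 genes with a window. Mdm2 and Ccng1 are shown because both are well-known p53 targets and they went opposite ways in rat tail collagen. Capitals mark the motif, and the sequences run 5′ to 3′ on the gene's strand, at chr17:29090871-29090972 (plus strand) for Cdkn1a, chr10:117710900-117710979 (minus strand) for Mdm2 and chr11:40755427-40755506 (minus strand) for Ccng1.
Cdkn1a: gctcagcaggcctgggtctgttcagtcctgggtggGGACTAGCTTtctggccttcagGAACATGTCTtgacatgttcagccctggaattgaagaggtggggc
Mdm2: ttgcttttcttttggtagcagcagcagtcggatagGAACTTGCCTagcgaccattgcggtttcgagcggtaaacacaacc
Ccng1: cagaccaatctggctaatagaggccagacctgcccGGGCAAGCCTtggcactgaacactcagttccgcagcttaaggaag
In Cdkn1a the motifs lie at positions -73 to -64 and -51 to -42 from the start, in Mdm2 at -186 to -177 and in Ccng1 at -185 to -176. The 10 bases directly after Cdkn1a's second motif (tgacatgttc) miss the consensus at their first base only. A search without mismatches leaves them in lower case, so the capitals do not mark every near match. The windows of Aen (GGGCTTGTCC, -121 to -112 of its downstream start), Gadd45a (-40 to -31), Sesn1 (-173 to -164 of its downstream start) and Trp53 (-75 to -66) also held a match. Those of Cdkn1b, Phlda3 and Eda2r held none. A match describes letters in this window and is not a measured binding site, and p53 sites known in first introns, such as that of Mdm2, lie outside it.

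Totals per library ran from 28483064 to 53138362 counts. CD8+ T cell markers (Cd8a, Cd8b1, Cd3d, Cd3e, Cd3g and Trac) were present in every group, with a summed level of 3438 to 4142 CPM (counts scaled to library size) in naive cells, 2642 to 2916 in media, 2666 to 2904 in bovine collagen and 2046 to 2309 in rat tail collagen. In rat tail collagen against media 3 of the 6 were called lower (Cd3d, Cd3g and Trac) and 0 higher. Against naive cells all 6 were lower in rat tail collagen, where 35.4% of all genes were. Markers of CD4+ T and NK cells summed to 25.3 to 38.2 CPM in media and to 67.5 to 78.9 with rat tail collagen, where 2 of the 4 tested were higher. These were Zbtb7b (mean 26.0 to 53.8 CPM), which made up most of the sum, and Klrb1c (0.324 to 8.70). Cd4 (2.87 to 2.40 CPM) and Foxp3 were not called, with overlapping libraries, and Ncr1 was too low to test. The list thus did not move as a whole. The B cell list summed to 12.6 to 15.4 CPM in media and to 7.81 to 9.17 with rat tail collagen. Of 2 tested, Cd79b was lower (mean 13.1 to 7.48 CPM) and Cd79a higher (0.429 to 0.911). The stromal list summed to 133 to 148 CPM in media and to 89.3 to 89.8 with rat tail collagen, with 3 of 4 tested higher and 1 lower. Its sum was mostly Pecam1, which was lower (mean 137 to 70.0 CPM). Col1a1 (0.311 to 4.29 CPM), Epcam (1.47 to 13.9) and Pdgfrb (0.505 to 1.17) were higher. Over all genes tested, 29.7% were called higher and 28.7% lower in this comparison. Pdgfra and Alas2 had 0 counts in media, and Pax5 and Hbb-bs in bovine collagen. Myeloid markers summed to 30.4 to 124 CPM in naive cells and to 7.31 or less in every day 4 library. Genes of ribosomal RNA took 5.03 to 13.2% of counts in rat tail collagen, 5.50 to 11.9% in bovine collagen, 4.45 to 4.72% in media and 3.96 to 5.67% in naive cells. The nuclear RNA Malat1 took 1.11 to 1.47% in rat tail collagen and 0.179 to 0.295% in media. These measures moved with the groups, and their part in the results was not tested beyond the values without the 3 libraries of highest ribosomal RNA share (bovine collagen 2, rat tail collagen 1 and 3), which leave 1 rat tail collagen library that is assumed to vary like the other groups.

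The first comparison, of rat tail collagen with media, shows what went with a day in this gel. Of the 10 genes, 6 were higher, 3 were lower and 1 did not pass the test. The CDK inhibitors went opposite ways: Cdkn1a rose 3.22-fold while Cdkn1b fell by 0.58 on the log2 scale. Among the p53 loop genes Mdm2 rose 1.38-fold and Trp53 fell by 0.33. The apoptosis-linked Aen rose 2.07-fold, Phlda3 1.53-fold and Eda2r 2.74-fold, Sesn1 rose 1.64-fold, and Ccng1 fell by 0.40. A call is an adjusted p under 0.05 in edgeR's quasi-likelihood test over all genes. By this rule 58.4% of the 19392 genes tested were called, 29.7% higher and 28.7% lower, so a single call is common here. The median log2 change of the 10 genes was 0.54, and that of all genes tested was -0.01. The libraries of the groups did not overlap in any of the 10 genes, 7 higher and 3 lower in rat tail collagen, as in 65% of all genes tested (33.1% higher, 31.9% lower). In bulk RNA, a change in the share of cells that express a gene and a change in RNA per cell cannot be told apart.

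**Figure D1:**
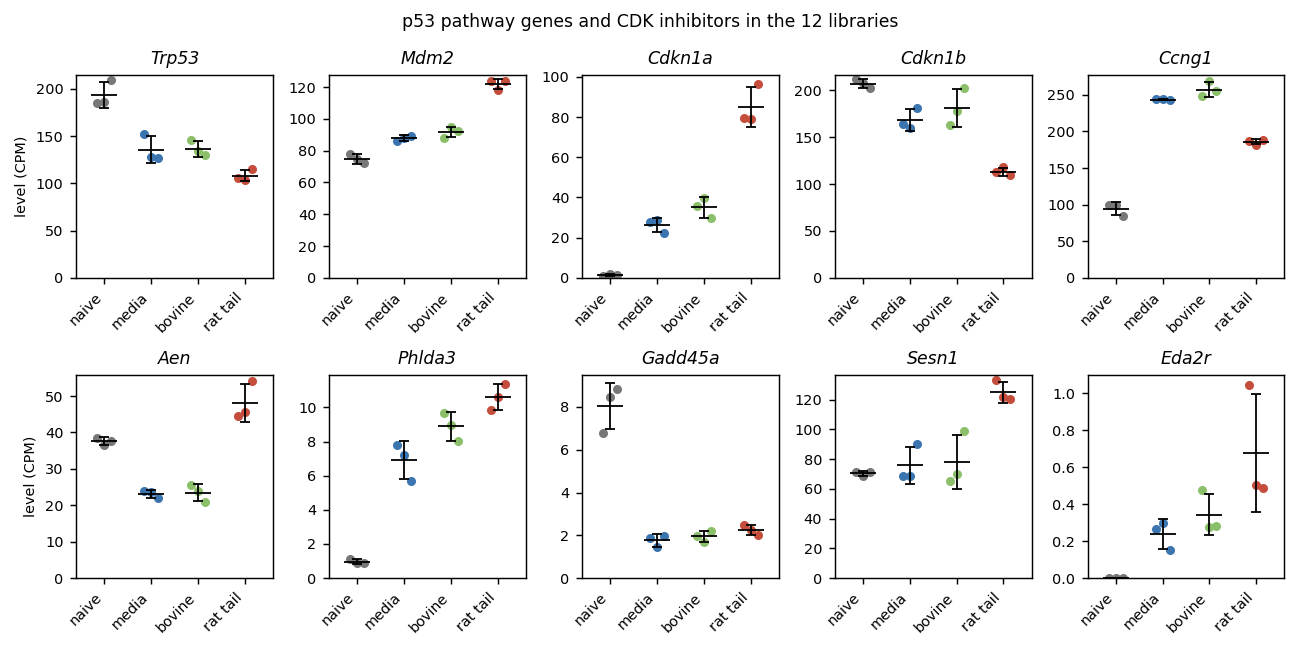
Level of each of the 10 genes in every library (points, CPM on a linear axis from 0, a panel per gene) in naive cells, media, bovine collagen and rat tail collagen, with the mean (line) and SD (bars, n = 3) of each group. The 3 rat tail collagen libraries lie above the 3 media libraries for 7 genes and below them for Trp53, Cdkn1b and Ccng1.

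Trp53, which encodes p53 itself (GRCm38 chromosome 11, 69580359 to 69591873, plus strand), was at 152, 128 and 127 CPM in media 1, 2 and 3 and at 106, 103 and 115 CPM in rat tail collagen. All rat tail collagen libraries were below all media libraries (log2 -0.33 ± 0.0837 (SE), edgeR adjusted p = 0.00495). The pseudogene Trp53-ps may share reads with Trp53, whose value is uncertain to that extent: its mean was 2.91 CPM in media and 2.37 CPM with rat tail collagen. Mdm2, the ligase that targets p53 for degradation (chromosome 10, 117688875 to 117710758, minus strand), was at 86.3, 88.2 and 89.6 CPM in media and at 124, 118 and 124 CPM in rat tail collagen. Its groups did not overlap either, in the other direction (0.46 ± 0.0634, adjusted p = 7.79e-05). Without the 3 libraries of highest ribosomal RNA share Mdm2 remained a call and Trp53 did not, at a log2 change no smaller (-0.39, adjusted p = 0.0749) in a fit with 1 rat tail collagen library.

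Cdkn1a, the p21 inhibitor of cyclin E and cyclin A kinases (chromosome 17, 29090976 to 29100727, plus strand), was at 27.8, 28.6 and 22.2 CPM in media and at 79.3, 79.3 and 96.4 CPM in rat tail collagen. Every rat tail collagen library lay far above every media library, and the change was 1.69 ± 0.132 on the log2 scale (adjusted p = 1.01e-06). The ribosomal RNA share was 10.96, 5.03 and 13.16% in rat tail collagen 1, 2 and 3, and its part in the Cdkn1a levels was not tested. Cdkn1b, the p27 inhibitor (chromosome 6, 134920401 to 134925513, plus strand), was at 164, 160 and 181 CPM in media and at 112, 118 and 109 CPM in rat tail collagen. Every rat tail collagen library was below every media library (-0.58 ± 0.0887, adjusted p = 1.72e-04). Both calls held in all 17 alternative analyses of this comparison. The predicted transcript AC167363.2 on the other strand shares 7.68% of Cdkn1a's exon bases, and the sources used here do not give the strand setting of the counting.

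Ccng1, an unusual cyclin that recruits a phosphatase to Mdm2 (chromosome 11, 40748552 to 40755311, minus strand), was at 244, 244 and 243 CPM in media and at 187, 182 and 188 CPM in rat tail collagen. These were among the tightest groups, and they lay apart, lower in rat tail collagen (-0.40 ± 0.0651, adjusted p = 2.62e-04). The cause was not tested. Gadd45a, a stress sensor that acts on p38 kinase signalling and DNA repair (chromosome 6, 67035096 to 67037457, minus strand), was at 1.89, 1.43 and 1.99 CPM in media and at 2.48, 2.26 and 2.00 CPM in rat tail collagen. It did not pass the test (0.33 ± 0.185, adjusted p = 0.143), and its highest media library lay just below its lowest rat tail collagen library. The opposite-strand transcript E230016M11Rik shares 19.1% of its exon bases.

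Aen, a nuclease of apoptotic DNA cleavage (chromosome 7, 78895854 to 78911209, plus strand), was at 23.8, 23.6 and 21.9 CPM in media and at 44.5, 45.6 and 54.2 CPM in rat tail collagen. The groups lay far apart for their spread (1.05 ± 0.0979, adjusted p = 3.94e-06). Phlda3, a pleckstrin homology protein that restrains the survival kinase Akt (chromosome 1, 135766119 to 135769136, plus strand), was at 7.81, 7.22 and 5.69 CPM in media and at 9.85, 10.6 and 11.4 CPM in rat tail collagen. Its libraries did not overlap (0.61 ± 0.131, adjusted p = 0.00187). Eda2r, a receptor of the TNF receptor family that binds ectodysplasin A2 (chromosome X, 97333840 to 97377216, minus strand), had only 14, 13 and 7 counts in media and 35, 30 and 17 in rat tail collagen, or 0.267, 0.30 and 0.150 against 1.05, 0.503 and 0.486 CPM. It lay near the lower limit of measurement, and rat tail collagen 1 was the highest of the 3 (1.45 ± 0.401, adjusted p = 0.00878).

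Sesn1, a sestrin that dampens mTORC1 signalling and oxidative stress (chromosome 10, 41809935 to 41908424, plus strand), was at 68.5, 68.8 and 89.8 CPM in media and at 133, 122 and 120 CPM in rat tail collagen. Media 3 stood above the other media libraries, and still below all of rat tail collagen (0.71 ± 0.150, adjusted p = 0.00169). Without the 3 libraries of highest ribosomal RNA share, 1 rat tail collagen library was left in the fit, and calls fell over all genes too. Mdm2, Cdkn1a, Aen, Cdkn1b and Ccng1 kept their calls there. Besides Trp53, the calls lost were Phlda3 (log2 0.62), Sesn1 (0.68) and Eda2r (1.06). The cause of these losses was not tested.

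Bovine collagen was next set against media, as a gel of another collagen source at the same concentration and time. None of the 10 genes passed edgeR's test, where 0.0206% of all genes were called, 4 in number. DESeq2 and limma-voom called 0 of the 10 as well. Of the 10 genes 2, Cdkn1a and Phlda3, had an unadjusted edgeR p under 0.05, as had 810 of all 19392 genes tested. Cdkn1a was at 35.7, 39.9 and 29.5 CPM in bovine collagen, above the media libraries without overlap (log2 0.42 ± 0.131, edgeR adjusted p = 1), and it was called when no filter on low counts was used (0.41, adjusted p = 0.0365). Phlda3 was at 9.68, 8.97 and 8.02 CPM, also without overlap (0.36 ± 0.132), and Ccng1 at 248, 269 and 255 CPM (0.08 ± 0.0649). In these 3 genes bovine collagen lay wholly above media, as it did in 4.66% of all genes tested, and in 0 of the 10 wholly below (4.5% of all genes, 9.15% either way). For the other 7 the libraries overlapped: log2 values were 0.01 for Trp53, 0.06 for Mdm2, 0.10 for Cdkn1b, 0.02 for Aen, 0.14 for Gadd45a, 0.05 for Sesn1 and 0.53 ± 0.451 for Eda2r, which had 17, 7 and 11 counts in bovine collagen. Same-numbered media and bovine collagen libraries correlated in their deviations at 0.619, 0.118 and 0.679. The second value lies within the range of differently numbered libraries (up to 0.237), so pairing is not settled. With the replicate number as a block 0 of the 10 were called and 7 genes in all.

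**Figure D2:**
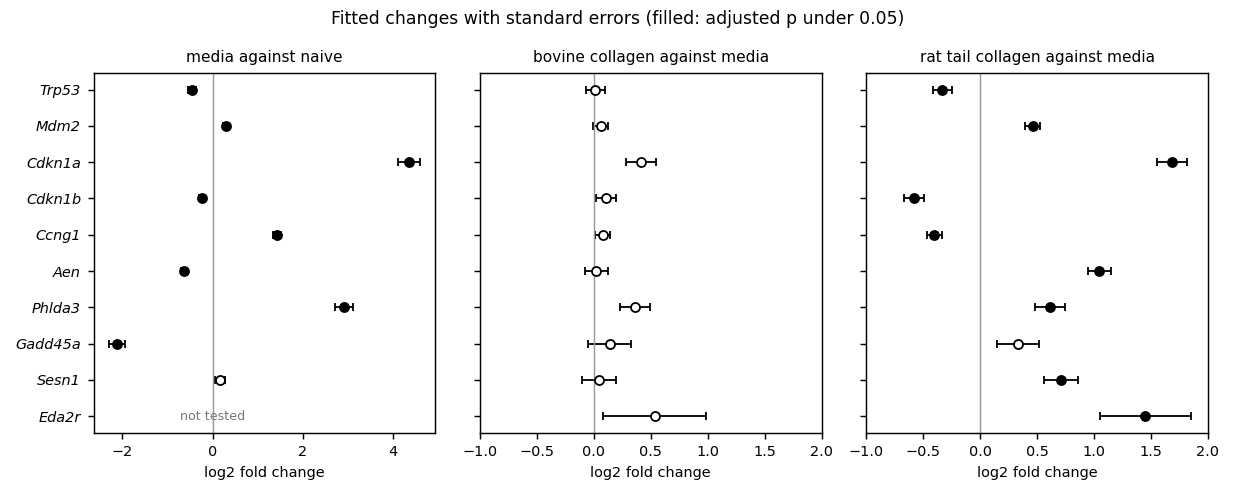
Log2 fold change of each of the 10 genes (points, with bars of 1 standard error) in media against naive cells, bovine collagen against media and rat tail collagen against media, filled where the edgeR adjusted p was under 0.05. The gel panels share 1 axis range and the panel against naive cells has a wider one. In bovine collagen the highest points are Eda2r at 0.53, Cdkn1a at 0.42 and Phlda3 at 0.36, none of them filled, and rat tail collagen reaches 1.69 for Cdkn1a.

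The gels were then compared with each other, in libraries that also enter the comparisons with media. Rat tail collagen was higher in 4 of the 10 genes and lower in 3, where 28.4% and 26.4% of all genes were called (54.7% either way). Cdkn1a was 2.41-fold higher (log2 1.27 ± 0.131, adjusted p = 9.58e-06), Aen 2.04-fold (adjusted p = 5.80e-06), Sesn1 1.59-fold (adjusted p = 0.00281) and Mdm2 1.32-fold (adjusted p = 2.54e-04). Cdkn1b was at 163, 178 and 203 CPM in bovine collagen, all above rat tail collagen, and 1.61-fold lower in the latter (adjusted p = 5.69e-05). Ccng1 (-0.48, adjusted p = 8.09e-05) and Trp53 (-0.35, adjusted p = 0.00440) were lower too. Phlda3 (0.25, adjusted p = 0.131), Gadd45a (0.19, 0.413) and Eda2r (0.92, 0.0740) did not pass, so Phlda3 and Eda2r were called against media and not between the gels. Libraries did not overlap in 6 genes upward and 3 downward, against 63.9% of all genes (32.5% and 31.4%). Without the 3 libraries of highest ribosomal RNA share the calls of Sesn1 (0.57, adjusted p = 0.146) and Trp53 (-0.41, 0.0857) were lost. The remaining bovine collagen levels were 146, 134 and 130 CPM for Trp53, 88.3, 94.9 and 92.5 for Mdm2, 25.7, 23.9 and 20.9 for Aen, and 65.6, 69.9 and 99.1 for Sesn1. Bovine collagen 3 was thus the highest for Sesn1, as was media 3 among the media libraries.

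Media was compared with naive cells to show what activation and culture to day 4 go with. Of the 9 genes tested 4 were higher, 4 lower and 1 not called, where 31.6% and 29.2% of 18610 genes were called (60.8% either way). Cdkn1a was nearly silent in naive cells, at 0.866, 1.97 and 1.21 CPM (33, 75 and 50 counts), and 20.3-fold higher in media (log2 4.34 ± 0.244, adjusted p = 7.15e-07). Phlda3 was at 1.13, 0.866 and 0.868 CPM in naive cells and 7.55-fold higher in media (adjusted p = 2.84e-06). Ccng1 was at 99.8, 99.7 and 83.8 CPM in naive cells and 2.69-fold higher in media (adjusted p = 1.68e-06). Mdm2, at 77.9, 74.7 and 72.1 CPM in naive cells, was higher by 0.30 (adjusted p = 0.00452). All naive libraries were below all media libraries for these 4 genes and for Eda2r, as in 35.1% of all genes tested, and the 4 lower genes did not overlap either (32.7% of all genes, 67.8% either way).

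Gadd45a went the other way. It was at 6.80, 8.48 and 8.83 CPM in naive cells and 4.33-fold lower in media (-2.12 ± 0.178, adjusted p = 9.54e-06). Aen was at 38.5, 36.6 and 37.8 CPM in naive cells and lower in media (-0.64, adjusted p = 6.96e-05), and Trp53, at 185, 186 and 210 CPM, was lower too (-0.45, adjusted p = 0.00205). Cdkn1b was at 212, 207 and 202 CPM in naive cells, above all media libraries (-0.24 ± 0.0762, adjusted p = 0.0228). That call was lost with no filter on low counts (-0.22, adjusted p = 0.0654) and without naive 1, naive 2 or media 2 (adjusted p = 0.0638, 0.0608 and 0.107). Sesn1 was at 71.3, 68.5 and 71.6 CPM in naive cells, overlapping media (0.17, adjusted p = 0.202). Eda2r had 0 counts in all 3 naive libraries and did not pass the filter, and its 34 counts in media put it at least 9.36-fold above a floor of 3 counts over the naive group. This floor and the bound cover counting error only.

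Rat tail collagen against naive cells adds the culture and the gel. All 10 genes were called, 7 higher and 3 lower, where 71.9% of 19449 genes were called (36.5% higher, 35.4% lower), and in all 10 the libraries did not overlap (76.1% of all genes, 38.5% higher and 37.6% lower). Cdkn1a was 63.3-fold higher (adjusted p = 1.98e-07), Phlda3 11.1-fold, Ccng1 1.97-fold, Sesn1 1.78-fold, Mdm2 1.63-fold and Aen 1.28-fold (adjusted p = 0.00317). Eda2r, with 82 counts in rat tail collagen, was at least 25.1-fold higher than the naive floor. With 0 counts in naive cells it passed the filter only through rat tail collagen. Its direction was thus fixed by the filter, and its place among the 7 higher genes is no support. Gadd45a was 3.56-fold lower, Cdkn1b 1.82-fold lower (-0.87, adjusted p = 8.60e-07) and Trp53 1.79-fold lower. Media against naive cells and rat tail collagen against media share the media libraries. Side by side, their log2 values were 1.43 and -0.40 for Ccng1, -0.64 and 1.05 for Aen, and -2.12 and 0.33 for Gadd45a, the last not called. The sum of the myeloid markers, higher in naive cells (30.4 to 124 CPM) than in any day 4 library, moved with every contrast against naive cells. Lyz2 (mean 35.1 CPM) and Csf1r (19.7) made up most of it in naive cells. Mean levels went the other way for Itgam in media (1.78 to 2.98 CPM) and for Cd14 in rat tail collagen (0.605 to 0.902). Of those tested, 4 of 5 were called lower in media and 4 of 6 in rat tail collagen (29.2% and 35.4% of all genes), and 0 higher. The part of these markers was not tested.

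Levels of different genes can be compared only per length, here as CPM per kilobase of exon (CPM/kb). In naive cells Trp53 (47.9 ± 3.44 CPM/kb, SD, n = 3) and Cdkn1b (45.5 ± 1.01) stood highest and did not differ beyond their spread, followed by Ccng1 (26.9 ± 2.63), Sesn1 (17.7 ± 0.430), Mdm2 (14.7 ± 0.581), Aen (6.48 ± 0.173), Gadd45a (4.55 ± 0.614), Phlda3 (0.612 ± 0.0970) and Cdkn1a (0.379 ± 0.159), which overlapped within their spread, and Eda2r at 0. In media Ccng1 led at 69.4 ± 0.222 CPM/kb, before Cdkn1b (37.0 ± 2.52) and Trp53 (33.5 ± 3.53), which overlapped within their spread, as did Sesn1 (19.0 ± 3.06) and Mdm2 (17.3 ± 0.320) and also Phlda3 (4.43 ± 0.703) and Aen (3.98 ± 0.181). Cdkn1a was at 7.37 ± 0.978 CPM/kb there. The order in bovine collagen was the same as in media. In rat tail collagen Ccng1 still led (52.8 ± 0.972 CPM/kb), Sesn1 came next (31.4 ± 1.76), and Trp53 (26.7 ± 1.5), Cdkn1b (24.9 ± 0.936), Mdm2 (24.0 ± 0.653) and Cdkn1a (23.9 ± 2.78) lay close together, each within the spread of the next. Aen (8.29 ± 0.910), Phlda3 (6.81 ± 0.489), Gadd45a (1.27 ± 0.137) and Eda2r (0.115 ± 0.0542) followed.

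Ratios within a library do not depend on how libraries are scaled. The ratio of Cdkn1a to Cdkn1b, per length, was 0.00533, 0.0122 and 0.00771 in naive cells, 0.217, 0.230 and 0.157 in media, 0.281, 0.288 and 0.187 in bovine collagen and 0.904, 0.862 and 1.13 in rat tail collagen. Thus p21 RNA was a small fraction of p27 RNA in naive cells and about level with it in rat tail collagen. Rat tail collagen had a 4.83-fold higher ratio than media and a 3.87-fold higher one than bovine collagen, and media a 25.0-fold higher one than naive cells. The Mdm2 to Trp53 ratio was 0.335, 0.320 and 0.273 in naive cells, 0.452, 0.550 and 0.562 in media, 0.481, 0.565 and 0.567 in bovine collagen and 0.932, 0.909 and 0.859 in rat tail collagen. It was 1.73 times as high with rat tail collagen as with media, 1.68 times as high as with bovine collagen, and 1.68 times as high in media as in naive cells. In each of these comparisons the groups did not overlap, and the two-sided exact permutation p was 0.1, the smallest that 3 against 3 libraries can give (adjusted 0.125 over 10 tests). Bovine collagen and media overlapped in both ratios (exact permutation p = 0.3 and 0.5). Same-numbered libraries of these groups correlated in their deviations, though the second pair only weakly (0.118). In 3 of 3 such pairs bovine collagen had the higher value of both ratios. The mean log2 difference was 0.32 for Cdkn1a to Cdkn1b and 0.05 for Mdm2 to Trp53. The exact sign-flip permutation p was 0.25 for each, the smallest that 3 pairs can give. The paired test was not planned and was chosen with these ratios already known. Run on rat tail collagen and media, it gave 3 of 3 pairs higher in both ratios (exact sign-flip permutation p = 0.25). Those groups did not overlap, so any pairing of their libraries gives the same result, and it adds nothing to the unpaired comparison.

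**Figure D3:**
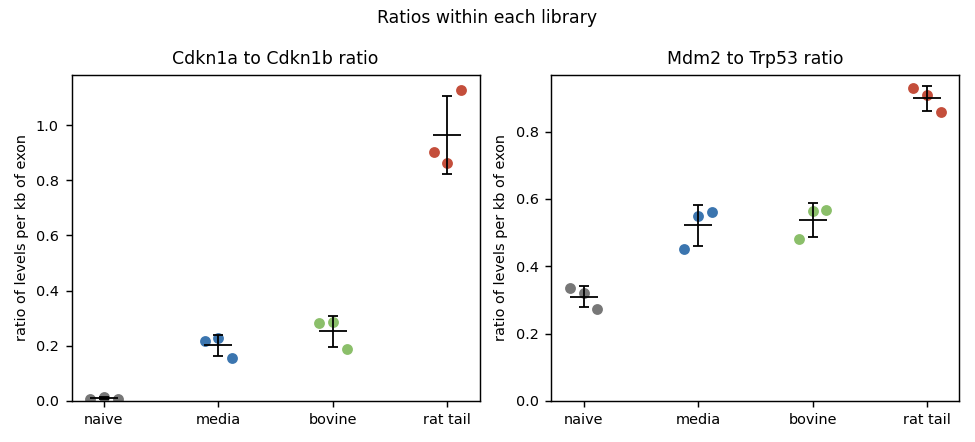
Ratio of Cdkn1a to Cdkn1b and of Mdm2 to Trp53 per exon length in each library (points, linear axis from 0), by group, with mean (line) and SD (bars, n = 3). Cdkn1a to Cdkn1b runs from 0.00533 in a naive library to 1.13 in a rat tail collagen library, and the media and bovine collagen libraries overlap.

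Other p53 targets, a list of 30 without the genes above, were read in the same tests. Against media, rat tail collagen was higher in 11 of the 29 tested and lower in 7, with 11 not called and a median log2 of 0.14. The list thus went both ways, where 29.7% and 28.7% of all genes were called. Ak1, an adenylate kinase, rose from 1.18 to 14.7 CPM (log2 3.63, adjusted p = 1.26e-08). Ppm1d, the phosphatase Wip1 that switches off p53 signalling, rose from 36.5 to 95.9 CPM (1.38, adjusted p = 9.99e-07). Fdxr, the mitochondrial ferredoxin reductase, went up from 20.8 to 42.7 CPM (1.03, adjusted p = 2.97e-06). Ddb2, a sensor of ultraviolet damage, fell from 56.1 to 28.7 CPM (-0.98, adjusted p = 1.23e-06). Without the 3 libraries of highest ribosomal RNA share fewer of them were called, as over all genes, with 1 rat tail collagen library left. In bovine collagen against media edgeR called 0 of the 29, DESeq2 called 1 and limma-voom 0. Of the 29, 4 had an unadjusted edgeR p under 0.05, as had 810 of all 19392 genes tested. Rat tail against bovine collagen gave 12 higher and 8 lower, where 28.4% and 26.4% of all genes were called. Fewer were called without those 3 libraries, again as over all genes. In media against naive cells 16 were higher and 8 lower (31.6% and 29.2% of all genes), and in rat tail collagen against naive cells 17 and 8 (36.5% and 35.4% of all genes). Of the 22 targets with a promoter window, 6 (27.3%) held the decamer motif, against 9.55% of all 27025 genes with a window.

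Genes that regulate p53 went both ways in rat tail collagen against media, with 4 of 11 higher and 4 lower, where 29.7% and 28.7% of all genes were called. Usp7, the deubiquitinase that acts on both Mdm2 and p53, rose from 226 to 532 CPM (log2 1.23, adjusted p = 1.67e-07). Hipk2, a kinase that phosphorylates p53, rose from 25.2 to 85.2 CPM (1.75, adjusted p = 1.48e-06). Trp53bp1, the damage response adaptor 53BP1, rose by 0.64, and Atr, the kinase of replication stress, fell from 74.95 to 40.3 CPM (-0.90, adjusted p = 3.04e-06). Of the paralogs of the 10 genes 5 of 7 tested were higher and 1 lower, against the same shares of all genes. Gadd45g, whose paralog Gadd45a was not called, rose from 4.35 to 16.7 CPM (1.93, adjusted p = 7.43e-07), Phlda1 from 1.70 to 9.33 CPM (2.45, adjusted p = 1.25e-06) and Sesn3 from 311 to 499 CPM (0.67). Ccng2 fell like Ccng1 (-0.43, adjusted p = 6.17e-04), a call lost without the 3 libraries of highest ribosomal RNA share (-0.33). Fewer p53 regulators were called lower in that fit too, as were fewer of all genes.

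Of the remaining CDK inhibitors tested, 2 of 4 were higher in rat tail collagen against media and 2 lower, where 29.7% and 28.7% of all genes were called. Cdkn2c, the p18 inhibitor of Cdk4 and Cdk6, rose from 5.01 CPM in naive cells to 71.0 in media (log2 3.89, adjusted p = 4.72e-09). It was at 17.5 CPM in rat tail collagen, lower than in media (-2.02, adjusted p = 2.66e-07). Cdkn2d, the p19 inhibitor of the same kinases, was at 46.6, 87.4 and 52.9 CPM in naive cells, media and rat tail collagen (0.97 in media against naive cells, -0.73 in rat tail collagen against media). Cdkn1c, the p57 relative of p21 and p27, rose from 0.609 to 1.88 CPM in rat tail collagen (1.61, adjusted p = 4.68e-04; 1.21 and 0.0556 without the 3 libraries). Cdkn2a, which encodes p16 and the Mdm2 inhibitor p19ARF, was at 0.548 and 0.843 CPM, a change called by edgeR (0.62, adjusted p = 0.0328). That call was lost in 9 of 16 alternatives, with adjusted p of 0.0523 with GC and length offsets, 0.0708 with all 12 libraries in 1 fit, 0.0939 with DESeq2, 0.137 without the 3 libraries and 0.163 with no filter. It was also lost without media 1 (0.0948), media 2 (0.101), rat tail collagen 1 (0.0547) or rat tail collagen 2 (0.124). Cdkn2b was too low to test.

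The kinases and cyclins that these inhibitors bind were lower in rat tail collagen than in media in 7 of 9 and higher in 1, with a median log2 of -0.38, where 28.7% of all genes were called lower and 29.7% higher. Ccna2, the S and G2 phase cyclin A, fell from 333 to 111 CPM (-1.59, adjusted p = 2.53e-07), Ccnd3 from 172 to 102 CPM (-0.77) and Ccnd2 from 367 to 224 CPM (-0.72), while the scarce Ccnd1 rose from 0.173 to 0.841 CPM (2.30, adjusted p = 9.03e-04). In media against naive cells 6 of these 9 were higher and 3 lower, where 31.6% and 29.2% of all genes were. Of the pocket protein, E2F and LIN genes, 5 of 11 were lower and 1 higher in rat tail collagen against media, so 6 of 11 were called, where 58.4% of all genes were. Rbl1, the pocket protein p107, fell from 137 to 62.8 CPM (-1.13), E2f2 (-0.90) and Lin9 (-0.67) also fell, and Rb1, the retinoblastoma gene, rose from 75.2 to 142 CPM (0.91, adjusted p = 3.07e-04). Genes that supply or remove p27 were lower in 3 of 5 and higher in 1, against the 28.7% and 29.7% of all genes. Foxo1, a known activator of Cdkn1b transcription, fell from 250 to 149 CPM (-0.75, adjusted p = 1.88e-04), Foxo4 (-0.29) and Cks1b (-0.47) fell, Foxo3 rose by 0.31, and Skp2, of the ligase that degrades p27, did not pass (-0.15, adjusted p = 0.121). Without the 3 libraries of highest ribosomal RNA share these lists had fewer lower calls, as did all genes. The calls of Foxo4 (-0.31), Cks1b (-0.40) and Foxo3 (0.27) were lost in this fit with 1 rat tail collagen library. The Foxo3 call was lost with GC and length offsets too (0.15, adjusted p = 0.0681). None of the genes in these lists, the p53 regulators or the paralogs was called by edgeR, DESeq2 or limma-voom in bovine collagen against media. Gadd45g and Ccnd3 alone had an unadjusted edgeR p under 0.05, where 810 of all 19392 genes tested had one.

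**Figure D4:**
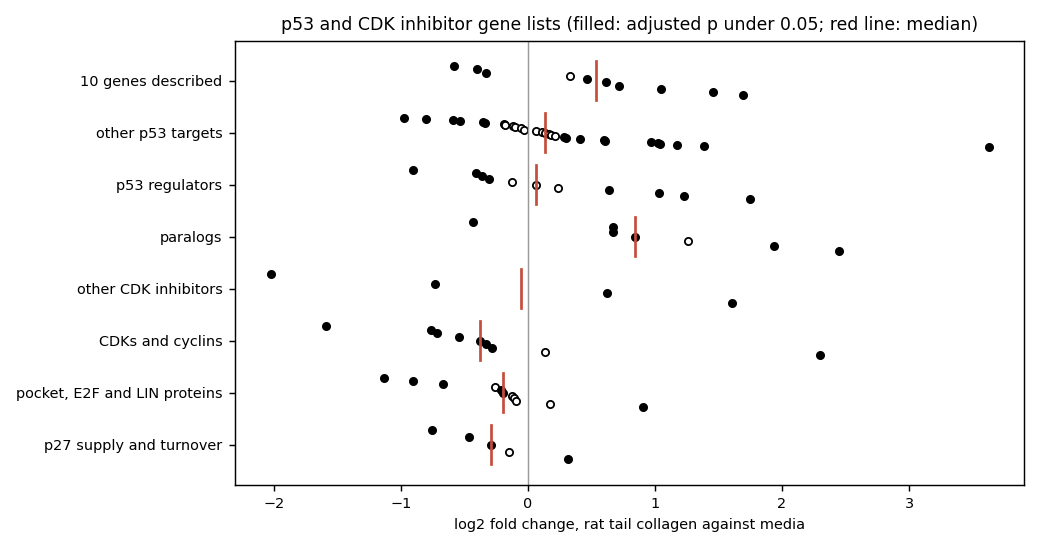
Log2 fold change of every tested gene (points) of the 10 genes and of the 7 other lists in rat tail collagen against media, filled where the edgeR adjusted p was under 0.05, with the median of each list as a red line. Every list has genes on both sides of 0, and the medians run from -0.38 for the CDKs and cyclins to 0.84 for the paralogs.

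The 5 genes whose log2 CPM over the 12 libraries was most like that of Cdkn1a, among 9571 genes with a mean of 5 CPM or more, were Nicn1 (Pearson r = 0.998), Erbb3 (0.995), C1qtnf6 (0.993), Kctd17 (0.993) and Spock2 (0.992). Kctd17, for example, was at 1.72 ± 0.114, 16.1 ± 2.00, 18.9 ± 2.97 and 45.7 ± 6.07 CPM in naive cells, media, bovine collagen and rat tail collagen (SD, n = 3), each time the order of Cdkn1a. For Cdkn1b they were Klhl42 (0.994), Tent5c (0.989), Jak1 (0.988), Camk1d (0.987) and Esyt2 (0.987). Jak1, the kinase of cytokine receptors, was at 1314 ± 45.7, 1009 ± 57.6, 1020 ± 116 and 606 ± 29.4 CPM in the same order. The 12 points of each correlation fall into 4 groups, so r mostly describes the group means.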

How the data were processed

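RNA of CD8+ T cells was measured in 12 libraries, each made from 150 ng of RNA after DNase treatment and depletion of ribosomal RNA, per the labels. The authors deposited 1 table of raw counts per gene symbol, whose values are whole numbers and were used unchanged. HISAT2, SAMtools, Picard, featureCounts, FastQC and MultiQC are named in the submitters' processing notes, with the builds GRCm38 and mm10. The sources used here do not give versions, strand setting or annotation release. Library names in the table header tied each column to a sample and its group. The labels give 3 mice per group and do not say which libraries share a mouse, so p-values measure only the spread among the libraries.

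Counts were tested with edgeR 4.0.16 (filterByExpr, TMM factors, robust quasi-likelihood F test) in R 4.3.3, with Benjamini-Hochberg adjustment over all genes tested. The 9 day 4 libraries shared 1 fit, and each comparison with naive cells used its 6 libraries. The biological coefficient of variation was 12.2%, 13.5% and 12.0%. CPM levels use 1 TMM scale over the 12 libraries, and lengths per kilobase, locations and overlaps come from GENCODE M21. Ratios had 0.5 counts added and were compared by exact permutation tests. Promoters are RefSeq windows of GRCm38.p6. The steps were tested on simulated data.

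The 10 genes, the other gene lists and the tests were chosen with earlier results of these data known. Named from each other list were the 4 genes with the smallest adjusted p in rat tail collagen against media, or all of a list with fewer than 6 tested genes. The genes most like Cdkn1a and Cdkn1b were the 5 with the highest correlation.

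Alternatives were RLE factors, DESeq2 1.42.0, limma-voom (limma 3.58.1), all 12 libraries in 1 fit, no filter beyond 1 count, a minimum of 1 CPM in 3 libraries, only the 6 libraries compared, a replicate block, removal of ribosomal RNA genes, leaving out the 3 libraries of highest ribosomal RNA share, GC and length offsets and leaving out each library. Whether replicate numbers pair libraries was checked from the correlation of their deviations from group means. It was 0.619, 0.118 and 0.679 for same-numbered bovine collagen and media and 0.103, 0.107 and 0.142 for rat tail collagen and media. Differently numbered libraries of all groups ran from -0.627 to 0.237, with 3 of 36 pairs over 0.1. The correlations thus do not settle whether the numbers pair rat tail collagen with media. For the other groups compared at least 1 pair was under 0.1 (0.0901, 5e-04 and 0.106 for the gels, -0.0762, 0.165 and -0.0671 for naive cells and media, and 0.202, 0.0571 and 0.165 for naive cells and rat tail collagen).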

Additional observations from a re-analysis of the deposited data

How the results depend on the processing

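Over the 10 genes and 5 comparisons, 283 of 294 results without 1 library and 496 of 506 under the other settings kept their direction and side of the threshold. Without the 3 libraries of highest ribosomal RNA share, fewer of the 10 genes were called higher in rat tail collagen against media. The same held for all genes in that fit, which had 1 rat tail collagen library. With no filter on low counts, 1 of them (Cdkn1a) was higher in bovine collagen than in media instead of 0. In bovine collagen against media, where values lie near 0, leaving out 1 library turned the sign: Trp53 ran from -0.038 to 0.092, Aen from -0.047 to 0.108, Sesn1 from -0.155 to 0.189 and the log2 Mdm2 to Trp53 ratio from -0.054 to 0.125. Replicate numbers as a block changed no call of the 10 genes in the comparisons with media at day 4. For groups whose same-numbered libraries did not all correlate in their deviations, the block changed calls in some comparisons. In rat tail collagen against naive cells all 10 genes stayed called. The block called Eda2r in rat tail against bovine collagen (0.91, adjusted p = 0.0328). The block lost Cdkn1b in media against naive cells (-0.24, adjusted p = 0.0675). The cause was not tested. Calls over all genes in bovine collagen against media were 4, with 7 under the block, 22 with DESeq2, 3 with limma-voom, 39 with no filter and 1 without the 3 libraries. Genes with few counts, such as Eda2r, limit what depth can show.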
